A study of Mus musculus with 6 samples.

Results

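The 42 genes described here encode proteins of G2 phase and mitosis: cyclins, mitotic kinases, checkpoint and kinetochore proteins, spindle motors, cytokinesis factors and condensins. They were taken by name, with no threshold on their levels. All 42 were found among the 55573 mouse genes of the count files, and all 42 were among the 16954 genes tested. RNA-Seq was performed on osteoclast cultures of 2 groups with 3 libraries each, called control and Rosa-Hes1. The cultures were bone marrow-derived macrophages (BMMs) of 10-week-old male mice, given RANKL (10 ng/ml) together with M-CSF (30 ng/ml) until day 4. Rosa-Hes1 mice carried a Rosa26 allele from which Cre recombinase removes a STOP cassette, so that HES1 is made, and a Cre knocked into 1 allele of *Ctsk*. Controls, given as wild type in the labels, were littermates with the Rosa allele and without Cre according to the study's methods, so the STOP cassette stayed in place. *Ctsk*, the cathepsin K gene, is active in mature osteoclasts and not only in them, and the control group carries no Cre, so Cre itself cannot be told apart from HES1. Mice with the Rosa allele were received on an ICR background. They were crossed with *Ctsk*-Cre mice, for which the study's methods give a different strain background. The mice cultured here are thus not described as pure ICR, and the strain make-up of each library is not given. The replicates are biological replicates by the study's description.

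A dividing cell doubles its DNA in S phase, passes through G2 phase and separates the copies in mitosis. Cyclin-dependent kinase 1 with a B-type cyclin starts mitosis, kinetochores join the chromosomes to the spindle, and the anaphase-promoting complex (APC/C) ends mitosis by marking cyclin B and securin for destruction. Most genes of this program are transcribed only as cells approach division, under the MuvB complex with B-MYB and then FOXM1. BMMs divide in response to M-CSF, and osteoclasts form when their precursors stop dividing and fuse.

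The libraries held 13038362 to 15956331 reads counted in genes. *Hes1* was at 0.296 to 0.557 CPM (counts per 1000000, with library sizes adjusted by TMM) in controls and at 4.83 to 6.91 CPM in Rosa-Hes1 libraries, so each library matched its label. On the first principal component over genes above 1 CPM on average, Rosa-Hes1 replicate 2 lay between the controls and the other Rosa-Hes1 libraries, which lay together. For the genes described here it was the library of its group nearest to the controls and replicate 3 the farthest from them, and results are given with and without each. Of the 12 osteoclast markers, 10 passed the test and were higher in Rosa-Hes1, beside 5.85% of all tested genes, and none was lower. Many of the 12 had been reported as increased by the study from the same RNA-Seq, so this count is not independent of that report. In bulk RNA, fewer cells of a type and less RNA per cell cannot be told apart.

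Mean levels of the 42 mitotic genes were lower in the Rosa-Hes1 cultures for every gene of the list, and 5 of the differences passed the test. Together they summed to 5250.5 ± 347 CPM in controls and 3911 ± 797 CPM in Rosa-Hes1 (SD, n = 3), which is 74.5% of the control level. The sums were 5606, 5233 and 4913 CPM in control replicates 1, 2 and 3, and 3943, 4691 and 3098 CPM in Rosa-Hes1 replicates 1, 2 and 3, so the groups did not overlap. The log2 fold change, Rosa-Hes1 over control, was below 0 for 42 of 42 genes, where 51.4% of all tested genes were below 0. It ran from -0.57 for *Cenpe* to -0.14 for *Plk1*, with a median of -0.42 beside -0.01 over all tested genes. With edgeR's quasi-likelihood test and an adjusted p (Benjamini-Hochberg over all tested genes) under 0.05, 5 of 42 fell, beside 2.41% of all tested genes: *Smc4*, *Nusap1*, *Kif23*, *Smc2* and *Aurkb*. None of the 42 rose, beside 5.85% of all tested genes, and the number was 0 as well at an unadjusted p under 0.05, with DESeq2 and with limma-voom. An unadjusted p under 0.05 with a lower level was met by 36 of the 42 and by 11.4% of all tested genes. The exceptions were *Ccnb1*, *Ccnb2*, *Cdc25c*, *Plk1*, *Cdc20* and *Cenpa*.

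**Figure D1:**
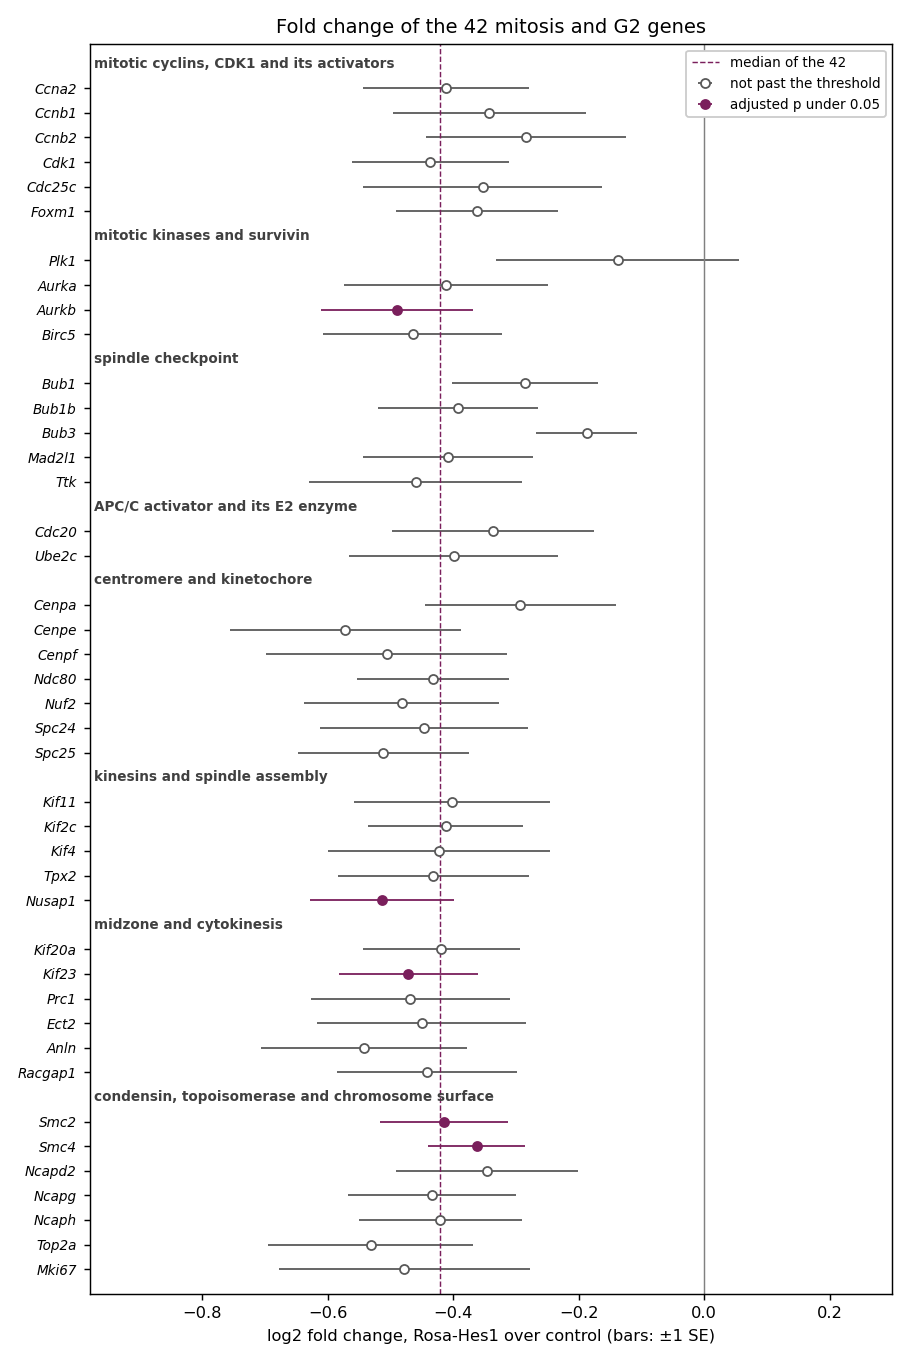
Log2 fold change of each of the 42 genes, Rosa-Hes1 over control (points, bars ±1 SE from edgeR, 3 libraries per group), grouped by role. All 42 points lie below 0, around the median of -0.42, and the 5 filled points are those with an adjusted p under 0.05.

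The 3 Rosa-Hes1 libraries all lay below the 3 controls for 29 of the 42 genes, which held for 14.5% of all tested genes. Rosa-Hes1 replicate 3 was the lowest of the 6 libraries for 42 of 42 genes, and replicate 2 was the highest of its group for 40. Relative to the control mean, the median log2 ratio over the 42 genes was -0.41 in Rosa-Hes1 replicate 1, -0.16 in replicate 2 and -0.73 in replicate 3, while the controls were at 0.09, -0.01 and -0.09. The genes thus moved together within each library, and the Rosa-Hes1 libraries differed from each other more than the controls did. The coefficient of variation (SD over mean) had a median of 7.34% in controls and 21.3% in Rosa-Hes1, and it was larger in Rosa-Hes1 for 42 of 42 genes. Over the 9097 genes whose mean reached 10 CPM, the medians were 6.57% and 7.26%. The median SE of the log2 fold change was 0.15 for the 42 genes and 0.09 for those 9097. Counts of the 42 genes ran from 122 to 9149 per library, and counting error at the lowest count was 9.05% of the value.

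**Figure D2:**
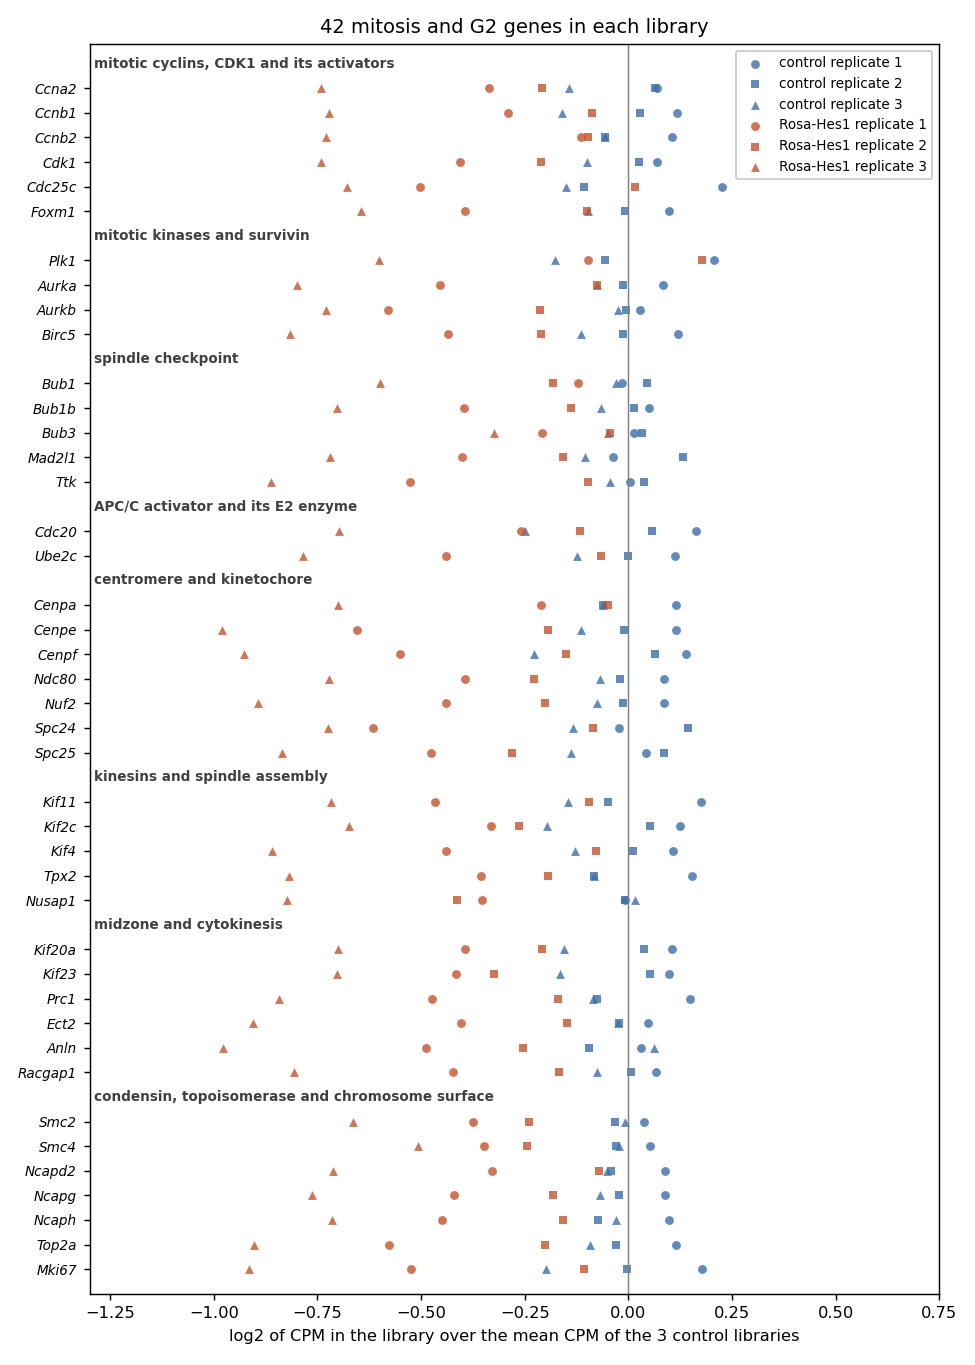
Level of each of the 42 genes in each library, as the log2 of its CPM over the mean CPM of the 3 controls (blue, controls; orange, Rosa-Hes1; marker shape, replicate). Rosa-Hes1 replicate 3 is leftmost for all 42 genes and replicate 2 lies next to or among the controls for most.

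How many genes passed the test depended on the libraries and the tool. Without Rosa-Hes1 replicate 2, 36 of the 42 fell, beside 6.63% of all genes tested in that fit, and the median log2 fold change was -0.57. The exceptions there were *Ccnb1*, *Ccnb2*, *Plk1*, *Bub1*, *Cdc20* and *Cenpa*. Without Rosa-Hes1 replicate 3, 1 gene, *Nusap1*, passed, the median was -0.30 and *Plk1* turned to 0.041. Leaving out Rosa-Hes1 replicate 1 or control replicate 1, 2 or 3 left 0 genes past the threshold, with medians from -0.47 to -0.38. Calls over all tested genes dropped as well, from 408 lower with all 6 libraries to 112 without Rosa-Hes1 replicate 3. They numbered 21 to 171 without Rosa-Hes1 replicate 1 or any 1 control. DESeq2's Wald test called 26 of the 42 lower, beside 5.17% of all tested genes. With limma-voom the numbers were 25 and 5.66%, and in edgeR, blocking on the replicate number, they were 13 and 2.01%.

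Cell cycle promoters often hold a CHR element, bound by MuvB complexes, and CCAAT boxes, bound by NF-Y. Both were searched on both strands in RefSeq promoter windows on GRCm38.p6, from 250 bases before to 50 bases after the transcription start, as the letters TTTGAA or TTCGAA for the CHR and CCAAT for the box; the reverse forms TTCAAA and ATTGG count too, TTCGAA is its own reverse and counts once, and matches of the 2 motifs may share letters. A window was found for 34 of the 42 genes, and *Ccna2*, *Cdc25c*, *Foxm1*, *Aurkb*, *Spc24*, *Tpx2*, *Kif20a* and *Smc4* had none. A CHR match was present in 27 of the 34 windows (79.4%), beside 19.4% of the windows of 27025 genes. A CCAAT match was present in 26 (76.5%) beside 37.9%, and both in 24 (70.6%) beside 7.70%. From 60 bases before to 50 after the start, a stretch added to the search later, 24 of 34 windows (70.6%) had a CHR match, beside 5.86% of all. Of the further mitosis and G2 genes described below, 39 of 62 windows held a CHR match (62.9%). Of the S phase genes 6 of 34 windows held a CHR match (17.6%), of the APC/C subunits 2 of 14 (14.3%) and of the cohesin genes 2 of 7 (28.6%). A CCAAT match was present in 67.7% of the windows of the further mitosis and G2 genes and in 58.8% of those of the S phase genes. Over the windows of genes tested here, 14.4% held a CHR match and 38.6% a CCAAT match. The CHR share was thus above that of all genes in both mitotic lists and, in the S phase list, near that of all genes.

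The following are the stretches from 150 bases before to 30 after the start for the 8 genes with a window and the smallest adjusted p among those whose values are given by library below, 5′ to 3′ on the strand of the gene, with whole motif matches in capitals. They lie on GRCm38.p6 at chr2:119618148-119618327 (*Nusap1*, plus strand), chr9:61946770-61946949 (*Kif23*, minus), chr4:52439071-52439250 (*Smc2*, plus), chr11:99024160-99024339 (*Top2a*, minus), chr2:118598061-118598240 (*Bub1b*, plus), chr15:99651627-99651806 (*Racgap1*, minus), chr3:135212413-135212592 (*Cenpe*, plus) and chr2:172370541-172370720 (*Aurka*, minus).
Nusap1: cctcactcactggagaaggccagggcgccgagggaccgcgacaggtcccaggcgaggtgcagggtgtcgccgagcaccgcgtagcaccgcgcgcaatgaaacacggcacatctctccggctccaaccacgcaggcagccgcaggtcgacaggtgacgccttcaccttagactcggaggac
Kif23: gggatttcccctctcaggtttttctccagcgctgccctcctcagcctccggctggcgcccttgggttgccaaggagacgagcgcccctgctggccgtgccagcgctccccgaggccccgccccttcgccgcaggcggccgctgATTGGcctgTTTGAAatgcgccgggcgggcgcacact
Smc2: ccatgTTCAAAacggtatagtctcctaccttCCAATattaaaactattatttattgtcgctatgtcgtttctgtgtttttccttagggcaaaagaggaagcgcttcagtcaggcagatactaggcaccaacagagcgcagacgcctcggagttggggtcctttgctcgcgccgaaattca
Top2a: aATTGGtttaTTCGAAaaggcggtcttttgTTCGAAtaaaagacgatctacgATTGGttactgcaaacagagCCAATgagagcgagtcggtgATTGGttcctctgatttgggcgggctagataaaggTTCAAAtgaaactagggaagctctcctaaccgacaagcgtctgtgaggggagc
Bub1b: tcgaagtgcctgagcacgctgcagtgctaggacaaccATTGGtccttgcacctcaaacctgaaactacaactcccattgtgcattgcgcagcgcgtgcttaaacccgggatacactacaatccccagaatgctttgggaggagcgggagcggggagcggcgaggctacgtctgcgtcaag
Racgap1: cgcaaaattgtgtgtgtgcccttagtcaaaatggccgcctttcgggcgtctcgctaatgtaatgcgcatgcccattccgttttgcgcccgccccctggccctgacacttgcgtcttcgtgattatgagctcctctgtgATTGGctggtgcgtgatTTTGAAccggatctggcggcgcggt
Cenpe: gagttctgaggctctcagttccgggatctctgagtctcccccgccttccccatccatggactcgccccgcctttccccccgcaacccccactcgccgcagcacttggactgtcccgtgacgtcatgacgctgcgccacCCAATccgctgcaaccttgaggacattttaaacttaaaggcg
Aurka: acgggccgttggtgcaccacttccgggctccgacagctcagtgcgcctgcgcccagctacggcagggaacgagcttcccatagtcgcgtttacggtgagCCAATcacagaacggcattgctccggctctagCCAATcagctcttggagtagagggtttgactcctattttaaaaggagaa
*Kif23* and *Racgap1* share an arrangement in which an ATTGG, 7 and 12 bases before the start, precedes a TTTGAA at 3 and 6 bases after it. *Top2a* holds 3 CHR matches and 4 CCAAT matches in this stretch, the most of the 8. *Bub1b*, *Cenpe* and *Aurka* hold CCAAT matches without a CHR match here, and *Nusap1*, which fell, holds neither. In the rest of its window *Bub1b* has CHR matches at 188 bases before and 41 after the start. *Aurka* has a CHR match at 33 bases after its start, so both genes count among those with a CHR match above. *Cenpe* and *Nusap1* have no CHR match in the whole window. A match is only a run of letters, and no binding was measured.

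Of the cyclins, CDK1 and its activators, 0 of 6 passed the test in edgeR, and their log2 fold changes were -0.44 to -0.28. An unadjusted p under 0.05 was met by 3, and DESeq2 called 2 and limma-voom 3 of them lower. Over all tested genes, 2.41% fell in edgeR, 11.4% were lower at an unadjusted p under 0.05, and DESeq2 called 5.17% and limma-voom 5.66% lower. *Ccna2* encodes cyclin A2, which drives S phase and entry into mitosis. It was at 159, 158 and 137 CPM in controls 1, 2 and 3, and at 120, 131 and 90.4 CPM in Rosa-Hes1 1, 2 and 3. The groups did not overlap, and the difference of -0.41 ± 0.13 (log2, SE) had an adjusted p of 0.0949 in edgeR. *Ccnb2*, encoding the Golgi-associated cyclin B2, was at 70.4, 63.0 and 62.9 CPM in controls and at 60.4, 61.1 and 39.5 CPM in Rosa-Hes1. For this gene only Rosa-Hes1 replicate 3 stood clearly below the controls, and the log2 fold change was -0.28 ± 0.16 (adjusted p in edgeR 0.314). Means of *Cdk1*, the mitotic kinase itself, were 177 ± 10.7 and 131 ± 23.6 CPM (SD, n = 3), with a log2 fold change of -0.44. *Ccnb1*, the main mitotic cyclin, was at -0.34, *Foxm1*, the transcription factor of G2 genes, at -0.36, and *Cdc25c*, a phosphatase that activates CDK1, at -0.35. *Ccnb1* has processed pseudogenes of 99.2% identity over 1287 bases (*Ccnb1-ps*), 98.1% over 1294 (*Gm12856*) and 97.3% over 1290 (*Gm8416*), so its level is uncertain. *Ccna2* shares 12.5% of its exonic bases with *Exosc9* on the opposite strand and *Cdc25c* 12.7% with *Gm3550*, and the strand setting of the counting was not stated.

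Of the mitotic kinases and survivin, 1 of 4 fell, beside 2.41% of all tested genes. *Aurkb* encodes Aurora B, the kinase of the chromosomal passenger complex, which corrects faulty attachments of chromosomes to the spindle. It was at 80.6, 78.7 and 77.7 CPM in controls and at 52.8, 68.2 and 47.7 CPM in Rosa-Hes1. The controls lay within a narrow range and the groups did not overlap, with a log2 fold change of -0.49 ± 0.12 and an adjusted p of 0.045 in edgeR. *Aurka*, encoding the spindle pole kinase Aurora A, was at 91.0, 85.0 and 81.5 CPM in controls and at 62.7, 81.5 and 49.3 CPM in Rosa-Hes1. Rosa-Hes1 replicate 2 was level with control replicate 3, and the log2 fold change of -0.41 ± 0.16 did not pass (adjusted p in edgeR 0.161). *Plk1*, encoding polo-like kinase 1, was at 89.5, 74.5 and 68.6 CPM in controls and at 72.4, 87.7 and 51.1 CPM in Rosa-Hes1. Here 2 of the 3 Rosa-Hes1 libraries lay within the range of the controls, and at -0.14 ± 0.19 (adjusted p in edgeR 0.723) it had the smallest difference of the 42. *Birc5*, encoding survivin, a partner of Aurora B, was at 112 ± 9.16 and 81.1 ± 16.7 CPM, with a log2 fold change of -0.47.

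Of the spindle checkpoint genes, 0 of 5 passed in edgeR. An unadjusted p under 0.05 with a lower level was met by 5, beside 11.4% of all tested genes. DESeq2 called 2 and limma-voom 3 lower, beside 5.17% and 5.66% of all tested genes. Products of the spindle checkpoint genes delay anaphase until every chromosome is attached. *Bub1b*, encoding the checkpoint protein BUBR1, was at 180, 176 and 167 CPM in controls and at 133, 159 and 107 CPM in Rosa-Hes1, so the groups did not overlap (-0.39 ± 0.13, adjusted p in edgeR 0.0967). *Bub1*, encoding the kinase that recruits the checkpoint to kinetochores, was at 134, 140 and 133 CPM in controls and at 124, 120 and 89.4 CPM in Rosa-Hes1. It was among the few genes whose Rosa-Hes1 replicate 1 exceeded replicate 2, and its log2 fold change was -0.29 ± 0.12 (adjusted p in edgeR 0.166). *Mad2l1*, the gene of the CDC20 inhibitor MAD2, was at -0.41, and *Ttk*, encoding the kinase MPS1, at -0.46. *Bub3*, whose product also acts outside mitosis, was at 153 ± 4.45 and 134 ± 13.2 CPM, and its -0.19 ± 0.08 was the difference nearest to 0 after that of *Plk1*.

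The APC/C activator *Cdc20* and *Ube2c*, its ubiquitin-conjugating enzyme, did not pass in edgeR, DESeq2 or limma-voom, *Ube2c* met an unadjusted p under 0.05 in edgeR, and the groups overlapped for both. *Cdc20* was at 106, 98.2 and 79.3 CPM in controls and at 78.9, 87.0 and 58.2 CPM in Rosa-Hes1 (log2 fold change -0.34 ± 0.16, adjusted p in edgeR 0.237). Only Rosa-Hes1 replicate 2 exceeded the lowest control. *Ube2c* was at 118, 109 and 100.5 CPM in controls and at 80.7, 104 and 63.5 CPM in Rosa-Hes1 (-0.40 ± 0.17, adjusted p in edgeR 0.181), with the same library inside the range of the controls. *Ube2c* shares 22.8% of its exonic bases with *Tnnc2* on the opposite strand, a gene listed at 0 counts in all 6 libraries.

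Of the centromere and kinetochore genes, 0 of 7 passed in edgeR, although the group had the lowest median log2 fold change of the 8 role groups, -0.48. An unadjusted p under 0.05 with a lower level was met by 6, beside 11.4% of all tested genes. DESeq2 and limma-voom each called 5 lower, beside 5.17% and 5.66% of all tested genes. *Cenpe* encodes CENP-E, a kinesin that carries chromosomes to the spindle equator. It was at 159, 146 and 135 CPM in controls and at 93.1, 128 and 74.3 CPM in Rosa-Hes1. The groups did not overlap and the mean was 32.7% lower, but the Rosa-Hes1 libraries spread widely, and -0.57 ± 0.18 had an adjusted p of 0.101 in edgeR. *Spc24*, encoding a subunit of the NDC80 complex that grips microtubules, was at 33.4, 37.5 and 31.0 CPM in controls and at 22.2, 32.0 and 20.6 CPM in Rosa-Hes1. Its Rosa-Hes1 replicate 2 lay within the controls (-0.45 ± 0.17, adjusted p in edgeR 0.136). The other 3 subunits of that complex were at similar log2 fold changes of -0.43 for *Ndc80*, -0.48 for *Nuf2* and -0.51 for *Spc25*, which had an adjusted p of 0.0555 in edgeR. *Cenpf*, encoding a large kinetochore protein, was at -0.51, and *Cenpa*, the gene of the centromeric histone H3 variant, at -0.29.

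Of the kinesins and spindle assembly genes, 1 of 5 fell, beside 2.41% of all tested genes. *Nusap1* encodes a microtubule-bundling protein of the spindle near chromosomes. It was at 80.3, 80.3 and 81.6 CPM in controls and at 63.2, 60.6 and 45.7 CPM in Rosa-Hes1. Its controls differed by a CV of 0.961%, its Rosa-Hes1 replicate 2 did not lie close to them, and the log2 fold change was -0.51 ± 0.11 with an adjusted p of 0.0313 in edgeR. *Nusap1* shares 4.24% of its exonic bases with *Oip5* on the opposite strand. *Tpx2*, encoding an activator of Aurora A on spindle microtubules, was at 180, 153 and 153 CPM in controls and at 126, 141 and 91.7 CPM in Rosa-Hes1, with no overlap (-0.43 ± 0.15, adjusted p in edgeR 0.122). The motors *Kif11*, which pushes the spindle poles apart, *Kif2c*, which removes tubulin from microtubule ends, and *Kif4*, which binds chromosome arms, were at -0.40, -0.41 and -0.42. *Kif4* shares 15.1% of its exonic bases with *Pdzd11* on the opposite strand.

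Of the midzone and cytokinesis genes, 1 of 6 fell, beside 2.41% of all tested genes. Every Rosa-Hes1 library lay below every control for 6 of 6, which held for 14.5% of all tested genes. *Kif23* encodes MKLP1, the motor of the centralspindlin complex, which marks the plane of cell division. It was at 113, 109 and 94.0 CPM in controls and at 79.0, 84.1 and 64.7 CPM in Rosa-Hes1, a log2 fold change of -0.47 ± 0.11 with an adjusted p of 0.0368 in edgeR. The 3 Rosa-Hes1 libraries lay closer together than for most of the 42. *Racgap1*, encoding the other centralspindlin subunit, was at 148, 142 and 134 CPM in controls and at 105, 126 and 80.8 CPM in Rosa-Hes1 (-0.44 ± 0.14, adjusted p in edgeR 0.0989). It has a processed pseudogene, *AC148020.1*, of 98.2% identity over 488 bases. *Kif20a*, encoding the midzone motor MKLP2, was at 114, 109 and 95.2 CPM in controls and at 80.7, 91.8 and 65.3 CPM in Rosa-Hes1 (-0.42 ± 0.13, adjusted p in edgeR 0.0773), and 29.3% of its exonic bases overlap *Cdc23* on the opposite strand. *Prc1*, which cross-links midzone microtubules, was at -0.47, *Ect2*, the activator of RhoA at the division plane, at -0.45, and *Anln*, the scaffold of the contractile ring, at -0.54. *Prc1* shares 11.1% of its exonic bases with *Rccd1* on the opposite strand.

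Of the condensin, topoisomerase and chromosome surface genes, 2 of 7 fell, beside 2.41% of all tested genes. Both of these 2 encode the core ATPases shared by the condensin complexes that compact chromosomes. *Smc4* was at 275, 260 and 261 CPM in controls and at 208, 224 and 187 CPM in Rosa-Hes1. The groups did not overlap, and -0.36 ± 0.08 had the smallest adjusted p of the 42, 0.0276 in edgeR. *Smc2* was at 194, 185 and 188 CPM in controls and at 146, 160 and 119 CPM in Rosa-Hes1 (-0.42 ± 0.10, adjusted p in edgeR 0.0435), with every Rosa-Hes1 library below every control. The condensin I subunits *Ncapd2*, *Ncapg* and *Ncaph* were at -0.35, -0.43 and -0.42 with adjusted p of 0.182, 0.0838 and 0.0849 in edgeR. *Ncapg* shares 13.4% of its exonic bases with *Lcorl* on the opposite strand. *Top2a*, encoding the topoisomerase that untangles sister chromatids, was at 626, 566 and 542 CPM in controls and at 387, 503 and 309 CPM in Rosa-Hes1. Its groups did not overlap, and the log2 fold change was -0.53 ± 0.16 with an adjusted p of 0.0887 in edgeR. *Mki67*, encoding Ki-67, the coat of mitotic chromosomes and a common proliferation marker, was at 604, 534 and 466 CPM in controls and at 372, 496 and 283 CPM in Rosa-Hes1. Rosa-Hes1 replicate 2 exceeded control replicate 3, and -0.48 ± 0.20 had an adjusted p of 0.191 in edgeR.

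Per kilobase of annotated exon, the most abundant of the 42 in controls were *Top2a* (64.2 CPM per kilobase), *Mki67* (53.1), *Smc4* (51.0) and *Cdc20* (50.5). The least abundant were *Ttk* (6.48), *Cenpf* (5.40) and *Cdc25c* (2.89). The 5 genes that fell ranked 3, 11, 18, 23 and 28 of 42 by this level over the 6 libraries, so most were not among the most abundant. Their spread between Rosa-Hes1 libraries was below that of most of the 42: the CV in Rosa-Hes1 was 9.09% for *Smc4*, 13.3% for *Kif23*, 14.6% for *Smc2*, 16.8% for *Nusap1* and 19.0% for *Aurkb*, where the median of the 42 was 21.3%. Their log2 fold changes of -0.51 to -0.36 lay on both sides of the median of -0.42. The test weighs a difference against its spread, so a small spread is partly built into the choice of these 5.

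A further list of 76 mitosis and G2 genes had a median log2 fold change of -0.43, with 75 of 76 below 0, and 13 fell and 0 rose. Over all tested genes, 51.4% were below 0, 2.41% fell and 5.85% rose. *Ska3*, encoding a subunit of the complex that keeps kinetochores on microtubules, was at 24.4 ± 0.817 CPM in controls and 16.7 ± 1.83 CPM in Rosa-Hes1 (-0.55, adjusted p in edgeR 0.0177). *Ncapd3*, a condensin II subunit, fell by 0.41, and *Cenpk*, of the inner kinetochore, fell by 0.73 on the log2 scale. *Mad1l1*, a checkpoint gene, was the 1 gene above 0, at 0.43 (adjusted p in edgeR 0.0539). The 44 genes of DNA replication and S phase had a median of -0.48, with 44 of 44 below 0, and 24 fell and 0 rose. *Prim1*, the primase subunit, fell by 0.72, *Clspn*, a replication checkpoint adaptor, by 0.64 and *Mcm3*, a helicase subunit, by 0.50 on the log2 scale. The median SE was 0.12 for the S phase genes and 0.15 for the 42 mitotic genes, and the median CV in Rosa-Hes1 was 15.8% and 21.3%. Whether the 2 lists differ was not tested. Without Rosa-Hes1 replicate 2, 60 of the 76 and 38 of the 44 fell, beside 6.63% of all genes tested in that fit. Leaving out any other 1 library left at most 1 of the 76 and 3 of the 44, where 21 to 171 of all tested genes fell.

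The APC/C and cohesin also act in mitosis, and the median differences of their genes were smaller. Whether these lists differ from the 42 was not tested, and variation of their mRNA over the cell cycle was not measured. The 15 APC/C subunits had a median log2 fold change of -0.10 and the 10 genes of cohesin and its loaders -0.12. Of these 25 genes 1 passed, where 2.41% of all tested genes fell and 5.85% rose. It was *Anapc5*, an APC/C scaffold subunit, which fell by 0.37 (adjusted p in edgeR 0.0460). None of the cohesin genes passed in edgeR, 3 met an unadjusted p under 0.05, and DESeq2 and limma-voom each called 1 lower and 1 higher. Lowest among their adjusted p were *Smc3*, a ring subunit, at -0.32 (0.0585), and *Rad21*, the kleisin that closes the ring, at 0.24 (0.0806), in edgeR. The summed level in Rosa-Hes1 was 90.2% of that in controls for the APC/C and 96.8% for cohesin, beside 74.5% for the 42. Of the 19 genes of MuvB, B-MYB, E2F and pocket proteins, 4 fell and 0 rose, with a median of -0.21. *E2f1* and *E2f2*, activators of S phase genes, fell by 0.39 and 0.66, *Tfdp1*, their dimerization partner, by 0.42, and *Rbl1*, the pocket protein p107, by 0.55. *Mybl2*, the gene of B-MYB, was at -0.36 (adjusted p in edgeR 0.0795), a gene outside the naming rule and named after its value was seen. Of the 13 G1 cyclins, CDKs and CDK inhibitors 1 fell and 1 rose. *Ccnd1*, encoding cyclin D1, fell by 0.63 from 397 ± 28.3 to 256 ± 31.2 CPM. *Cdkn1b*, encoding the CDK inhibitor p27, was 0.48 higher, at 28.8 ± 2.95 and 40.2 ± 4.09 CPM (adjusted p in edgeR 0.0322). Without Rosa-Hes1 replicate 2, 3 of the 15, 2 of the 10, 11 of the 19 and 1 of the 13 fell. Over all genes tested in that fit, 6.63% fell. Of the lists, 1 of the 10 and 2 of the 13 rose there, beside 1555 of all 16464 genes tested in that fit. Leaving out any other library left 0 of the APC/C and cohesin genes past the threshold and 0 to 2 of the MuvB and E2F list. In those fits 21 to 171 of all tested genes fell and 244 to 644 rose. *Ccnd1* passed in every such fit except that without Rosa-Hes1 replicate 1, and *Cdkn1b* was lost without control replicate 1 or 3 or Rosa-Hes1 replicate 1 or 3. With the replicate number as a block, *Anapc5* and *Cdkn1b* did not pass.

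**Figure D3:**
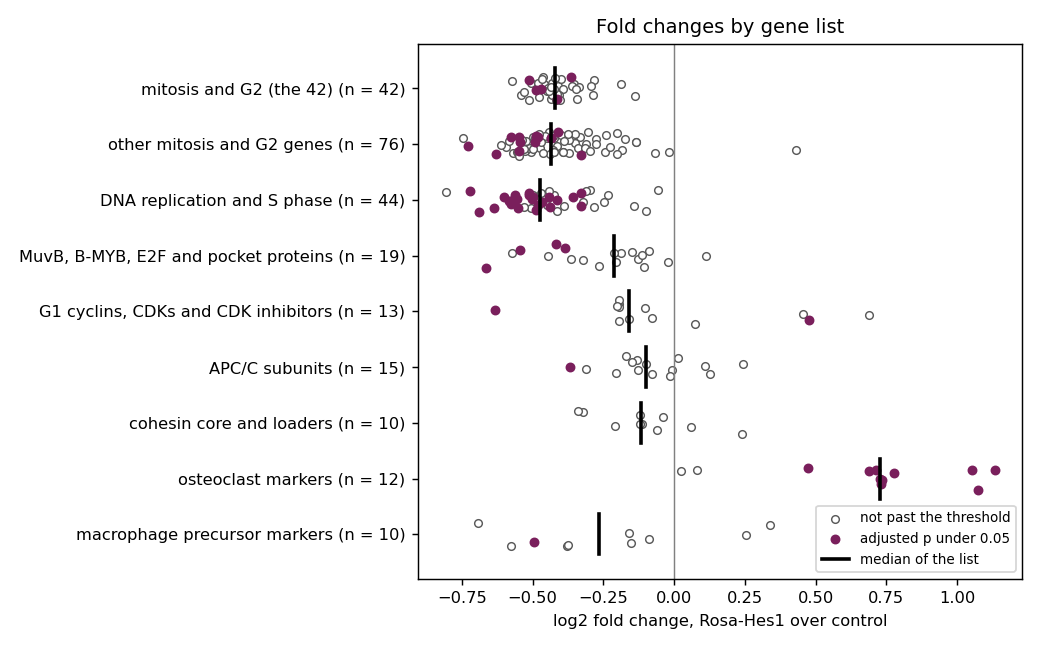
Log2 fold change of each tested gene, Rosa-Hes1 over control, by list (points; filled, adjusted p under 0.05; black line, median of the list). The medians of the mitotic, further mitotic and S phase lists are -0.42, -0.43 and -0.48, those of the APC/C subunits and cohesin -0.10 and -0.12, and that of the osteoclast markers 0.73.

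Markers of other cell types were measured beside these values, and their part in the result was not tested. The 12 osteoclast markers summed to 11249 to 14400 CPM in controls and to 17763 to 20702 CPM in Rosa-Hes1, and all 12 were detected. Within Rosa-Hes1, the library with the lowest osteoclast sum was replicate 2 (17763 CPM), which had the highest mitotic sum (4691 CPM), and replicate 3 had the highest osteoclast sum (20702 CPM) and the lowest mitotic sum (3098 CPM). Replicate 3 also had the most *Hes1*, at 6.91 CPM beside 4.95 and 4.83 CPM in replicates 1 and 2. These levels rest on 95 reads in replicate 3 and on 75 and 74 in replicates 1 and 2. Replicates 1 and 2 had similar *Hes1* but mitotic sums of 3943 and 4691 CPM, and a relation to *Hes1* level was not tested. Among the controls, replicate 1 had the lowest osteoclast sum (11249 CPM) and the highest mitotic sum (5606 CPM), but replicate 2 had the highest osteoclast sum (14400 CPM) with the middle mitotic sum (5233 CPM), and replicate 3 the lowest mitotic sum (4913 CPM) with the middle osteoclast sum (13185 CPM). The highest osteoclast markers were *Mmp9*, a matrix metalloproteinase, and *Ctsk*, which also carries the Cre knock-in in Rosa-Hes1, at means of 5091 and 3146 CPM in controls.

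**Figure D4:**
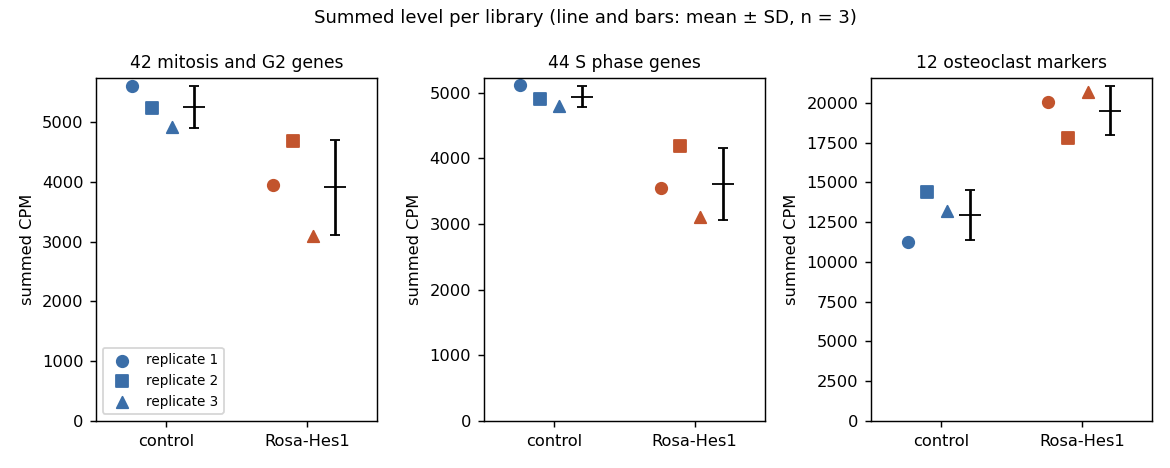
Summed CPM per library of the 42 mitotic genes, the 44 S phase genes and the 12 osteoclast markers (points, marker shape by replicate; line and bars, mean ± SD, n = 3; axes start at 0). The groups do not overlap in any panel, and Rosa-Hes1 replicate 2 is the library of its group nearest to the controls in all 3.

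The 10 macrophage precursor markers summed to 4023 to 4952 CPM in controls and to 3984 to 4818 CPM in Rosa-Hes1, and 1 of 10, *Cx3cr1*, fell (-0.50, adjusted p in edgeR 0.0404). The highest were *Adgre1*, encoding F4/80, and *Csf1r*, the M-CSF receptor gene, at means of 1861 and 1603 CPM in controls. Markers of myeloid progenitors, which also divide, summed to 25.8 to 58.6 CPM in controls and 29.7 to 41.4 CPM in Rosa-Hes1, with 0 of 7 past the threshold and *Mpo*, the myeloperoxidase gene, the highest. Neutrophil markers summed to 255 to 502 CPM and 241 to 340 CPM, with 0 of 7 past it and *S100a9* the highest. Osteoblast and stroma markers summed to 179 to 486 CPM and 113 to 378 CPM, mostly *Col1a1* and *Col1a2*, with 0 of 8 tested past it. Control replicate 1 and Rosa-Hes1 replicate 2, the library with the highest mitotic sum in each group, also had the highest sums of the progenitor, neutrophil and stroma lists in their groups. Dendritic cell markers summed to 12.9 to 17.3 CPM and 21.4 to 27.0 CPM, and 1 of 5 tested, *Itgax*, rose. For comparison with the calls in these short lists, 2.41% of all tested genes fell and 5.85% rose. B cell markers summed to at most 5.60 CPM, T and NK cell markers to at most 0.436 CPM and erythroid markers to at most 0.457 CPM in any library. *Cd3e* and *Cd3g* were at 0 counts in all 6 libraries.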

How the data were processed

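Total RNA of 6 osteoclast cultures was made into stranded mRNA libraries and sequenced in 1 pool. The authors trimmed reads with Sickle, aligned them with HISAT2 2.1.0, used Picard to drop PCR duplicates and HTSeq to count; the strand setting is not given in the sources used here. The deposited values are raw counts per Ensembl mouse gene, with no normalization, 1 file per library. The labels name GRCm38, and names and positions here came from GENCODE M21 on that build, which left 93 of 55573 identifiers without a symbol. Reads outside genes, 17.4% to 18.1% of each library, were left out of library sizes and tests.

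Counts were compared between groups with edgeR 4.0.16 (TMM, robust quasi-likelihood test, no covariate) over genes whose counts in the 6 libraries together reached 10. The threshold was an adjusted p of 0.05 (Benjamini-Hochberg), and the biological coefficient of variation was 0.124. The test was first tested on simulated data. Libraries of 1 group differed by 9.49 to 18.4 times counting noise (chi-square per degree of freedom), so none was deposited again under another name within its group. Libraries of different groups were not compared in this way. CPM are counts scaled by TMM to a common library size, and CPM per kilobase divide them by the summed exon length of the gene over all its transcripts. An exact permutation test of 3 against 3 libraries has a smallest p of 0.10, so none was run. Near-identical transcripts were sought with BLAST+ 2.17.0 (at least 95% identity over 150 bases).

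The members, their role groups, the other lists and the marker lists were chosen with earlier results of these data known. Values in every library are given, in each role group, for the 2 genes with the most CPM per kilobase and for those past the threshold, and for any whose direction was opposite to the median, which none was. From each other list up to 4 genes with the smallest adjusted p are named, and all past the threshold where 5 or fewer were; from marker lists, the highest and those at 0. A few names this picks are not reported here. Promoters shown are those of genes with values in every library, up to 8 by adjusted p, with 1 RefSeq window per gene symbol. Alternatives were DESeq2's size factors, the upper quartile, edgeR's filterByExpr, no filter, DESeq2 1.42.0's Wald test, limma-voom (limma 3.58.1) with sample quality weights, the replicate number as a block, and leaving out each library in turn. The authors' own test was made in DESeq2 with covariates they do not name.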

Additional observations from a re-analysis of the deposited data

How the results depend on the processing

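The number of the 42 mitotic genes past the threshold varied more than their direction. With edgeR it was 5 under TMM, DESeq2's size factors, the upper quartile and filterByExpr. It was 10 with no filter, 26 with DESeq2's Wald test and 25 with limma-voom with quality weights, and it was 0 to 36 when 1 library was left out. The number of genes that rose was 0 under all 13 alternatives, and the median log2 fold change was -0.57 to -0.30. All 42 log2 fold changes were below 0 under 12 of the 13 alternatives; without Rosa-Hes1 replicate 3, *Plk1* was at 0.041, and without Rosa-Hes1 replicate 2 it was at -0.33. Over all genes, those lower numbered 408 in edgeR, 697 with no filter, 876 with DESeq2's Wald test, 960 with limma-voom and 21 to 1091 when 1 library was left out, and those higher 991 in edgeR, 244 to 1555 when 1 library was left out and 710 to 1375 in the rest. Each of the 5 called genes lost its call in at least 4 of the 6 fits with a library left out, where fewer libraries enter the test; without Rosa-Hes1 replicate 2 all 5 kept it.

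Whether the replicate numbers pair the libraries is not stated in the sources used here. Same-numbered libraries had correlations of their deviations from the group means of -0.01, -0.11 and 0.21. Deviations sum to 0 within each group of 3 libraries, so these correlations cannot decide whether pairs exist. With the replicate number as a block, 13 of the 42 were called lower, 340 of all genes lower and 710 higher, and 0 APC/C subunits were lower and 0 G1 genes and CDK inhibitors higher, so *Anapc5* and *Cdkn1b* did not pass there. Of the 3 controls, only replicate 3 correlated best with the Rosa-Hes1 library of its own number; the highest correlation, 0.30, was between control replicate 1 and Rosa-Hes1 replicate 2.

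The 3 libraries per group limit the precision more than the depth does: the median CV of the 42 between Rosa-Hes1 libraries was 21.3%, and the counting error of the lowest count was 9.05%. The median log2 fold change of -0.42 stands beside a median SE of 0.15.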
